A study of Homo sapiens with 6 samples.

Results

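TE-1 is a cell line from a human oesophageal squamous cell carcinoma. The genes described here are 9 secreted factors that act on blood or lymph vessels, VEGFA, VEGFB, VEGFC, PGF, PDGFA, PDGFB, FGF2, ADM and ANGPTL4, together with THBS1, which encodes the angiogenesis inhibitor thrombospondin 1. They were chosen by name, with earlier results of these data known. They make up 10 of the 18132 genes that the array represents by at least 1 probe set with a single gene symbol. All 10 passed the filter on dim genes, which left 13599 genes to test. Transcript levels were measured on 3 arrays of TE-1 cells in which EIF3C was stably knocked down, a gene that encodes a subunit of the translation initiation factor eIF3, and on 3 arrays of parental TE-1 cells as control. Both were grown in the same serum-supplemented medium. The knockdown samples come from 1 clone, and the labels name neither the construct that lowers EIF3C nor a construct in the control cells. Effects of the knockdown and of picking a clone cannot be told apart here, nor can fewer cells that make a transcript and less of it per cell. The labels call the replicates biological without saying how they were separated, so the p-values measure only the spread between these samples.

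Vascular endothelial growth factors and the related placental growth factor bind receptor tyrosine kinases on endothelial cells and drive the sprouting of blood and lymph vessels. Fibroblast growth factor 2 acts on endothelial and many other cells, and platelet-derived growth factors recruit the pericytes and smooth muscle cells that coat new vessels. Thrombospondin 1 opposes sprouting through its receptors CD36 and CD47. Tumour cells secrete factors of both kinds, several of them under the control of hypoxia-inducible factors (HIF). The array measures their mRNA and says nothing of the protein that is made or released.

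The arrays were closely matched. The array medians lay between 6.09 and 6.11 on the log2 scale, and correlations over probe sets were at least 0.9977 within groups and at most 0.9846 between them. On the 3 bright probe sets of EIF3C, which it shares with its near-identical copy EIF3CL, the knockdown arrays kept 21.5% to 22.6% of the control signal (limma, adjusted p at most 8.77e-15). Of 7 squamous epithelial markers measured, E-cadherin (CDH1) was bright, with a mean of 11.33 over all arrays, while the basal keratins KRT5 and KRT14 were dim, at 5.91 and 5.85 in control. The mean signal of these 7 was 9.43 to 9.45 in control and 9.51 to 9.56 in knockdown. CDH1 rose by 0.23, DSG3, DSC3 and SOX2 fell by 0.7, 0.76 and 0.25, and KRT5, KRT14 and SFN did not pass. Of 12 endothelial markers, 5 lay under the filter on dim genes, and the mean signal of the list was 5.95 to 5.99 in control and 5.73 to 5.78 in knockdown. The brightest, EGFL7, fell by 0.54, while CDH5 rose by 0.46. Of 8 fibroblast markers 5 lay under that filter, and the mean signal was 6.24 to 6.29 in control and 5.03 to 5.13 in knockdown. COL1A2, the brightest, fell by 2.52, while FAP, under the filter, rose by 0.84. Differences of markers come from a fit without the filter. Leukocyte markers stood at 4.41 to 4.69 in control and 4.34 to 4.5 in knockdown, with 5 of 7 under the filter. Mural cell markers stood at 6.64 to 6.76 in control and 6.38 to 6.44 in knockdown, with 0 of 6 under it. Among them NOTCH3 fell by 1.11 and ACTA2 rose by 0.51. The part of these markers in the results was not tested.

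Of the 10 genes, 6 were higher in the knockdown cells and 1 was lower, against 32.4% higher and 34.1% lower over all genes tested (limma with Benjamini-Hochberg adjustment over the 13599 genes, adjusted p under 0.05). FGF2 rose 3.75-fold, ADM 2.47-fold, PGF 1.9-fold, PDGFA 1.68-fold and ANGPTL4 1.62-fold. THBS1 rose 1.1-fold on its brightest probe set. VEGFA, the central angiogenic factor, fell to 90.1% of control, and VEGFB, VEGFC and PDGFB did not pass. A difference of at least 2-fold was found for 2 of the 10 genes, both higher, against 2.6% higher by that much over all genes tested. The groups did not overlap for 8 of the 10 genes, 6 with knockdown higher and 2 lower, against 33.6% and 36.7% over all genes tested. The median difference of the 10 genes was 0.42 on the log2 scale, beside -0.03 for all genes tested.

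The bases before the transcription start of ADM, ANGPTL4 and FGF2, genes that rose, are shown to set 2 promoters with a TATA box beside 1 without. They are the 250 bases upstream in RefSeq on GRCh38.p14, where 8 of the 10 genes have an entry, with 12 start sites in all. All 3 lie on the plus strand, at chr11:10304823-10305072 for ADM, chr19:8363905-8364154 for ANGPTL4 and chr4:122826581-122826830 for FGF2. Capitals mark matches to TATAAA, the TATA box, and to ACGTG, a form of the core of the hypoxia response element, on either strand. The form GCGTG was not searched and is left unmarked, although the windows of ADM and FGF2 hold it. On either strand, windows of VEGFB, VEGFC, THBS1, PDGFA and PGF hold it too, and its share over all windows was not counted.
ADM: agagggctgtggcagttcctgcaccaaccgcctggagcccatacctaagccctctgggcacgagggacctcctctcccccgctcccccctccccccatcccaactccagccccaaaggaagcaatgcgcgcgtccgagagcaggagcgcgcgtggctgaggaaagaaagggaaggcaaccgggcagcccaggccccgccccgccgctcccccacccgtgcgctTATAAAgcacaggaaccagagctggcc
ANGPTL4: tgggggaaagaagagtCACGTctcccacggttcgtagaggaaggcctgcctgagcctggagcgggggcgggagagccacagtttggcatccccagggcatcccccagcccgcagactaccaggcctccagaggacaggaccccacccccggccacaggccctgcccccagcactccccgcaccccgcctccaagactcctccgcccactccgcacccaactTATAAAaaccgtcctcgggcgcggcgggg
FGF2: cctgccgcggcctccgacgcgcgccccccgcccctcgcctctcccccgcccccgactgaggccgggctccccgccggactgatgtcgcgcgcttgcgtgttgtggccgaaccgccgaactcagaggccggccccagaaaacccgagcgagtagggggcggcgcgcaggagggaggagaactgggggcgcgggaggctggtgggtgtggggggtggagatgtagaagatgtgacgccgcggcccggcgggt
ADM held TATAAA starting 27 bases before its start, and ANGPTL4 29 bases before, and neither PGF, PDGFA, THBS1, VEGFB, VEGFC nor FGF2 held it. Of all 35114 upstream windows of that length, 10.7% held TATAAA on either strand. ANGPTL4 also held ACGTG, read on the opposite strand and starting 234 bases before the start. That form of the core was in 18.5% of all windows. The AP-1 site TGACTCA was in 0 of the 12 windows and in 4.2% of all windows. The windows of FGF2 and ADM were 75.2% and 68% G or C, and those of VEGFB and VEGFC, which did not pass, 82.8% and 74%. All 12 windows lay between 68% and 82.8%, beside a median of 58% for all windows of the reference. The matches are letters in a window and were not tested as binding sites.

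FGF2 changed most among the 10 genes. FGF2 encodes fibroblast growth factor 2, a heparin-binding mitogen that lacks a classical secretion signal. Its log2 signal was 6.07, 5.99 and 5.82 in the control arrays and 7.8, 7.94 and 7.85 in the knockdown arrays. Every knockdown array stood above every control array by a wide margin. The difference was 1.91 (SE 0.069, 95% confidence interval 1.76 to 2.05, limma adjusted p = 2.51e-13), which ranked 57th by size among the genes tested. The other 2 probe sets of FGF2 rose by 1.61 and 1.79, and the groups did not overlap on any of its 3 probe sets.

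ADM rose on all of its 3 probe sets. It encodes adrenomedullin, a peptide that relaxes vessels and stabilises the endothelial barrier through the receptor CALCRL with a RAMP protein. On the brightest probe set the log2 signal was 8.33, 8.38 and 8.25 in control and 9.62, 9.65 and 9.6 in knockdown. The groups were far apart beside their spread, with a difference of 1.31 (SE 0.039, 95% confidence interval 1.22 to 1.39, limma adjusted p = 3.05e-14). That probe set is of the type that can share probes with other transcripts. A second probe set, not of that type, rose by 1.29 and the third by 0.85.

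PGF, the placental growth factor, binds VEGF receptor FLT1 and was measured by 1 probe set. Its log2 signal was 6.27, 6.29 and 6.35 in control and 7.24, 7.23 and 7.21 in knockdown, so replicates differed little and the groups did not overlap. The difference was 0.92 (SE 0.058, 95% confidence interval 0.8 to 1.05, limma adjusted p = 3.05e-10). ANGPTL4, an inhibitor of lipoprotein lipase with effects on vessel permeability, was also measured by 1 probe set. Its log2 signal was 5.64, 5.48 and 5.39 in control and 6.18, 6.24 and 6.17 in knockdown. The control arrays spread more than the knockdown arrays but stayed below them, with a difference of 0.69 (SE 0.079, 95% confidence interval 0.53 to 0.86, limma adjusted p = 5.78e-07).

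PDGFA and PDGFB encode the A and B chains of platelet-derived growth factor, and PDGFA passed the test while PDGFB did not. On its brightest probe set PDGFA gave 8.89, 8.76 and 8.63 in control and 9.56, 9.48 and 9.5 in knockdown. The groups did not overlap, and PDGFA rose by 0.75 (SE 0.051, 95% confidence interval 0.64 to 0.86, limma adjusted p = 7.98e-10). A further pair of probe sets rose by 0.55 and 0.58, while the dimmest, at 3.36 in knockdown, stood at -0.1 and did not pass (adjusted p = 0.361), and the mean of the 4 probe sets rose by 0.44. PDGFB gave 7.55, 7.44 and 7.44 in control and 7.42, 7.4 and 7.37 in knockdown. Its groups did not overlap but lay close together, and the difference of -0.08 did not pass (95% confidence interval -0.19 to 0.03, limma adjusted p = 0.173). All 3 probe sets of PDGFB pointed down, at -0.18 to -0.08, with 0 called, and the mean of them passed at -0.13 (adjusted p = 0.0255). The difference between the 2 genes in response was not tested.

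**Figure D1:**
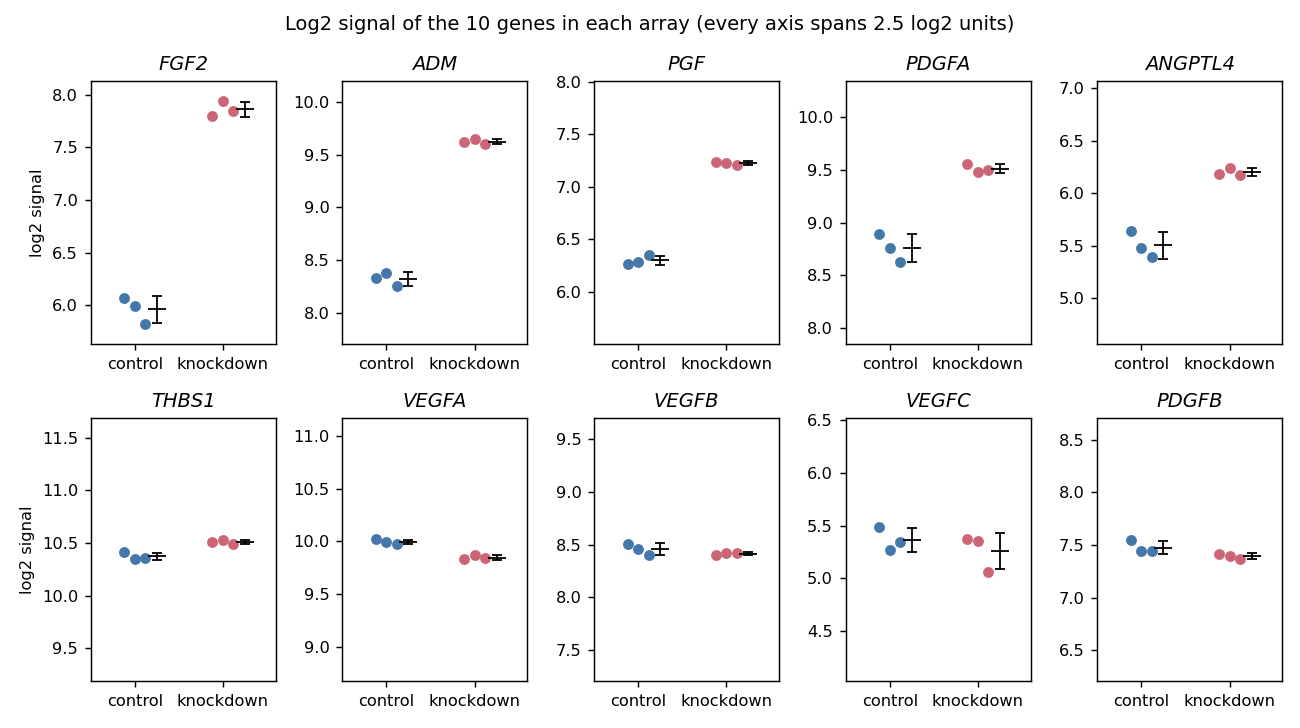
Log2 signal (vertical axis, 2.5 log2 units in every panel) of the brightest probe set of each gene in 3 control arrays (blue) and 3 knockdown arrays (red), with the mean and SD of each group in black. FGF2, ADM, PGF, PDGFA and ANGPTL4 stand clearly higher in all knockdown arrays, by 0.69 to 1.91, while THBS1, VEGFA, VEGFB, VEGFC and PDGFB differ by 0.15 or less in size.

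VEGFA, VEGFB and VEGFC differed little between the groups. VEGFA, which signals chiefly through KDR, gave 10.02, 9.99 and 9.98 in control and 9.83, 9.87 and 9.84 in knockdown on its brightest probe set. Replicates lay within narrow bounds and the groups did not overlap, with a fall of 0.15 on the log2 scale (SE 0.028, limma adjusted p = 0.000155). Over its 10 probe sets, which ranged from -0.18 to 0.1, 4 were called lower, 0 higher and 6 not called. The 4 brightest were the ones called, and the mean of the 10 probe sets fell by 0.09. All 4 are of types that can share probes with other transcripts. The probe sets not of those types were the dimmest, stood at 0.01 and 0.1, and did not pass. The 85 non-human control probe sets of the array differed between the groups by -0.22 to 0.2, a range that holds each of the 10 values of VEGFA. These controls were not matched to any gene in brightness, so the range does not tell whether a small difference on a bright probe set is noise.

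VEGFB, which binds FLT1 and is linked to fatty acid uptake by endothelium, gave 8.51, 8.46 and 8.4 in control and 8.4, 8.42 and 8.42 in knockdown. The groups overlapped, and the difference of -0.04 did not pass (95% confidence interval -0.13 to 0.04, limma adjusted p = 0.361). VEGFC, the main growth factor of lymphatic vessels, gave 5.49, 5.27 and 5.34 in control and 5.37, 5.35 and 5.06 in knockdown. It was dim and variable, and the difference of -0.11 did not pass (95% confidence interval -0.31 to 0.1, limma adjusted p = 0.363). Without knockdown replicate 3, the lowest of its arrays, the difference of VEGFC was 0. The intervals leave room for a small change of either gene in either direction.

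THBS1 was called higher, by a size that varied among its probe sets. The brightest probe set gave 10.41, 10.35 and 10.36 in control and 10.51, 10.53 and 10.49 in knockdown. The groups did not overlap, and the rise was 0.14 (SE 0.027, 95% confidence interval 0.08 to 0.19, limma adjusted p = 0.000238), which lies within the range of the non-human controls. Of the other 4 probe sets 3 were called higher, by 0.39, 0.43 and 0.7, all above that range, and the dimmest stood at 0.05 (adjusted p = 0.636). The mean of the 5 probe sets rose by 0.34. The probe set that rose most gave 7.05, 6.91 and 6.94 in control and 7.6, 7.68 and 7.7 in knockdown, and its groups did not overlap. Within each array, its signal relative to the brightest one was -3.44 to -3.36 in control and -2.91 to -2.78 in knockdown. The changes of the 2 probe sets differed by 0.56 (exact two-sided permutation test, p = 0.1, the smallest that 3 against 3 arrays can give, n = 3 each). This pair was picked after its values were seen, for the largest rise, so the test cannot decide whether the 2 changed unequally.

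**Figure D2:**
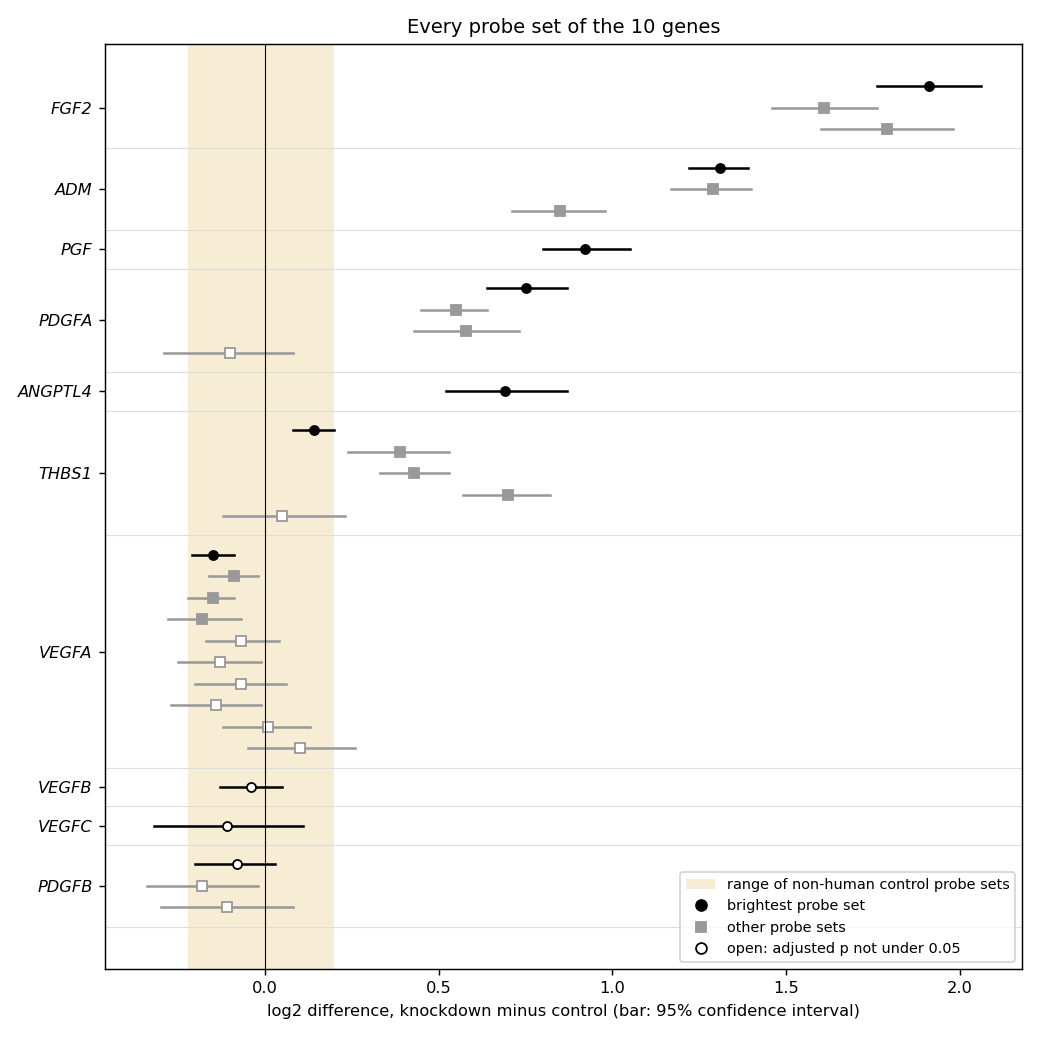
Difference of each of the 32 probe sets of the 10 genes on the log2 scale (horizontal axis, knockdown minus control), with 95% confidence intervals. Black circles are the brightest probe sets, grey squares the others, open symbols did not pass, and the shaded band is the range of non-human control probe sets, -0.22 to 0.2. All probe sets of FGF2 and ADM lie right of the band, those of VEGFA lie inside it, and those of THBS1 spread from 0.05 to 0.7.

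Across the 32 probe sets, 15 were called higher, 4 lower and 13 were not called, beside 24.1% higher and 24.1% lower among all 49293 human probe sets. Probe sets of 1 gene share its transcripts and are not independent. None of the 10 genes had probe sets called in opposite directions, although 1 dim probe set of VEGFA, at 0.1, had all knockdown arrays above all control arrays without passing. Within each array its signal relative to the brightest probe set of VEGFA differed by 0.25 between the groups (exact two-sided permutation test, p = 0.1, the smallest possible, n = 3 each, pair picked after its values were seen).

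Receptors and co-receptors of these factors fell more often than they rose. Of 20 listed, 14 passed the filter on dim genes, and 7 of these fell and 2 rose, where 34.1% of all genes tested fell and 32.4% rose. They had a median of -0.16 beside -0.03 for all genes tested. FGFR1, a receptor for FGF2, rose by 0.47, and FGFR2, another FGF receptor, fell by 0.37 on its brightest probe set, with the mean of its 12 probe sets lower by 0.17 (limma adjusted p = 3.51e-07 and 2.31e-09 on the brightest). The 7 probe sets of FGFR1 ranged from -0.18 to 1.12, with 4 called higher and 0 lower. CALCRL, the receptor for adrenomedullin, fell by 0.33, and the VEGF co-receptor NRP2 fell by 0.31 (limma adjusted p = 0.00237 and 0.00307). Both were dim, at 5.62 and 6.12 in control, as were KDR and RAMP1, which also fell, at 5.44 and 6.08. FGFR2 and NRP1, which fell too, were brighter, at 10.56 and 7.96 in control. CD47 fell by 0.16, a size within the range of the non-human controls. Without control replicate 2, 1 receptor gene was called higher.

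Other angiogenic ligands mostly rose or did not pass. Of 14 tested, 6 rose and 1 fell, beside 32.4% and 34.1% of all genes tested, and their median was 0.06. A rise of 2-fold or more was seen for 3, beside 2.6% of all genes tested. EDN1, the gene of the vasoconstrictor endothelin 1, rose by 1.63, from 5.33, 5.05 and 5.14 in control to 6.76, 6.85 and 6.8 in knockdown. The EGFR ligands TGFA and HBEGF rose by 1.31 and 0.96, and CCN1, a matrix protein that binds integrins, by 1.02. For these 4 genes limma adjusted p was at most 1.1e-09.

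Of inhibitors of angiogenesis other than THBS1, 4 of 14 tested were higher and 5 lower, near the 32.4% and 34.1% of all genes tested, with a median of -0.05. TIMP2, an inhibitor of matrix metalloproteinases, fell by 1.59 on its brightest probe set, but its other probe set rose by 0.25, and their mean fell by 0.67. VASH1, or vasohibin 1, fell by 0.55 on 1 of 4 probe sets, and the mean of the 4 fell by 0.16. TIMP3, which also blocks VEGF binding to KDR, fell by 0.54, and COMP, a thrombospondin family member, rose by 0.32 (limma adjusted p at most 0.0056 for these genes). Without control replicate 1, control replicate 2, knockdown replicate 1 or knockdown replicate 2, 2 inhibitor genes were called higher.

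Of 21 tested genes that process these factors, bind them in the matrix or release them, 7 rose and 11 fell, with a median of -0.12. Of all genes tested, 32.4% rose, a share near that of this list, and 34.1% fell. PLAU, the urokinase that can free matrix-bound growth factors, rose by 2.86, from 6.66, 6.55 and 6.51 in control to 9.39, 9.45 and 9.45 in knockdown. SDC4, a heparan sulfate proteoglycan and FGF2 co-receptor, fell by 1.26, as did the membrane metalloproteinase MMP14. CCBE1, a cofactor in the maturation of VEGFC, rose by 0.68 (limma adjusted p at most 3.75e-07 for these genes). For MMP14 the 4 probe sets ranged from -1.26 to -0.31, all called lower.

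HIF regulators and targets outside the 10 genes mostly fell. Of 16 tested, 10 fell and 3 rose, beside 34.1% and 32.4% of all genes tested, with a median of -0.26, while ADM and ANGPTL4, known HIF targets, rose and VEGFA fell by 0.15. The oxygen-sensing hydroxylases HIF1AN and EGLN1 fell by 1.15 and 0.82, the lipoprotein receptor gene VLDLR by 0.82 and EPAS1, which encodes HIF-2alpha, by 0.66 (limma adjusted p at most 8.16e-09). The list pools regulators with targets, and targets went both ways. Besides VLDLR, the targets ANKRD37, NDRG1, SLC2A1 and P4HA1 fell, by 0.48, 0.43, 0.24 and 0.18. BNIP3 rose by 0.42, and KDM3A by 0.12 with overlapping groups (limma adjusted p = 3.06e-08 and 0.0481). LDHA, PDK1 and EGLN3 did not pass. The other gene of the list that rose was HIF1A, by 0.07. For EGLN1 1 of 3 probe sets was called, and the mean of the 3 fell by 0.29, and the mean of the 3 probe sets of HIF1AN fell by 0.76. When either control replicate 3 or knockdown replicate 1 was dropped, 1 gene of this list was called higher.

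**Figure D3:**
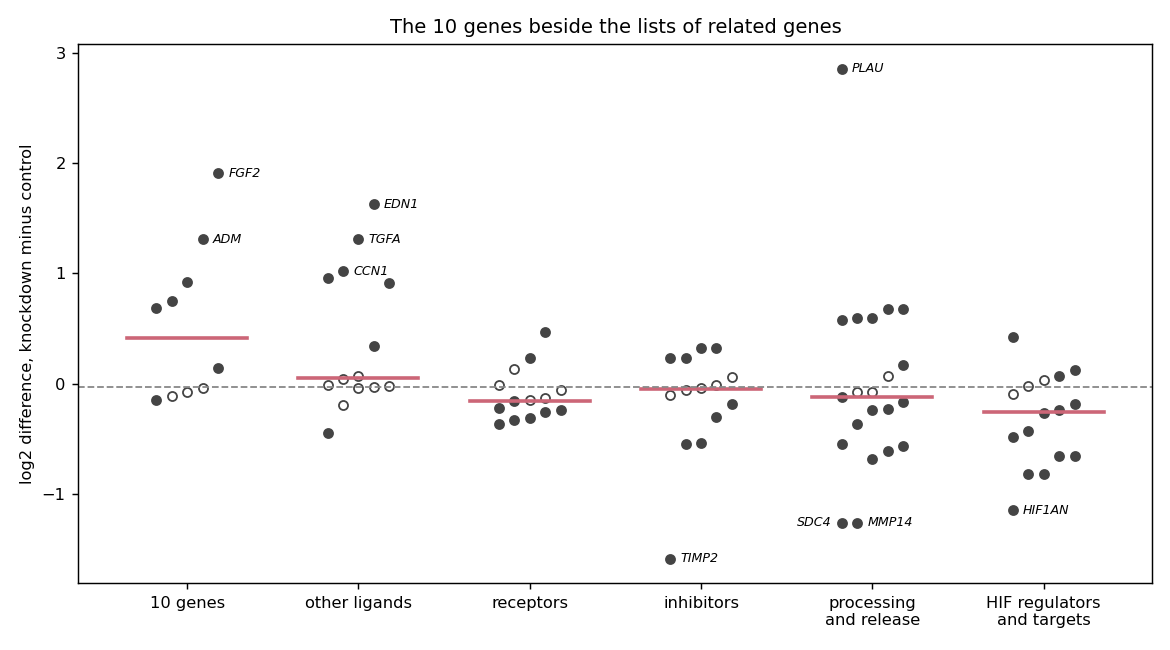
Difference of each tested gene on the log2 scale (vertical axis, knockdown minus control) for the 10 genes and 5 lists of related genes. Filled points passed an adjusted p of 0.05, open points did not, red lines are list medians, the dashed line is the median of all genes tested, -0.03, and genes that differ by at least 1 are named. The median is 0.42 for the 10 genes, 0.06 for other ligands and -0.26 for HIF regulators and targets.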

How the data were processed

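RNA of 6 TE-1 samples was labelled with biotin and hybridised to Affymetrix arrays, per the labels' protocols. The values are the log2 signals deposited by the authors, 49395 probe sets by 6 arrays. MAS5 is the only software named, per the submitters' processing notes. How background was corrected and probes summarised was not given in the sources used here. A log2 scale was read from the range of the values, and because array medians were nearly equal no further normalization was applied. Such scaling removes a change shared by all genes. Without detection calls, a dim gene cannot be called absent. Precision is limited by the number of arrays.

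Probe sets with 1 gene symbol in the platform annotation were used (44988), and all 10 genes matched RefSeq by Entrez ID. Each gene was represented by its probe set with the highest mean over 6 arrays, and the lowest 25% of genes by mean were left out (lowest mean kept 4.63). Groups were compared with limma 3.58.1 in R 4.3.3 (lmFit, then eBayes with its trend option) on a design with group alone. P-values were adjusted by Benjamini-Hochberg across the genes tested, with a threshold of 0.05. Single probe sets were taken from the same fit over all 49293 human probe sets. The fit was tested on simulated data. Named genes outside the 10 are, per list, the up to 4 largest changes past the threshold without overlap between the groups. Marker means were taken over linear signals and put back on the log2 scale. Marker genes were taken from a fit of all genes without the filter. The 10 genes, the lists and the tests were chosen with earlier results of these data known, and the TATA box was added after the sequences were seen.

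Alternatives were other filters, normalizations and moderation, the mean of probe sets, single probe sets, weights for arrays, a block for the replicate number, and omission of each array in turn.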

Additional observations from a re-analysis of the deposited data

How the results depend on the processing

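Of 170 alternative values for the 10 genes, 161 kept their direction and their side of the threshold, 5 no longer passed, 1 newly passed and 3 turned in sign. Most of the 170 were refits of the brightest probe set of a gene and not readings of its other probe sets. Those that turned were single probe sets, at 0.01 and 0.1 for VEGFA and -0.1 for PDGFA, and did not pass. Those that no longer passed were probe sets of VEGFA (-0.07, -0.07, -0.13 and -0.14) and THBS1 (0.05). With the mean of probe sets PDGFB passed at -0.13, so that 2 of the 10 genes were lower. With each array left out in turn, 6 of the 10 genes were higher and 1 lower every time. Leaving out the lowest 50% of genes by mean dropped the dim genes ANGPTL4 and VEGFC. Of the 8 genes then tested, 5 were higher and 1 lower.

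Counts of the lists moved more. With a 50% filter, which tests fewer genes, 4 receptors, 0 other ligands and 3 inhibitors were lower and 1 inhibitor was higher. Other ligands called lower numbered 2 with no filter, quantile normalization or the replicate block, and 0 with the mean of probe sets. HIF genes called higher numbered 1 with quantile normalization or without the intensity trend. With each array left out, receptors called higher numbered 1 to 2, inhibitors 2 to 4 and HIF genes 1 to 3. Fewer genes were tested under the stricter filter, and with the mean of probe sets 10 in place of 14 other ligands. Other causes were not tested.

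Replicate numbers were not taken to pair the samples in the main fit, and whether same-numbered samples were handled together was not tested. Deviations from the group means of same-numbered arrays correlated at 0.08, 0.13 and 0.23. Pairs of unlike number ranged from -0.18 to -0.01, apart from control replicate 1 with knockdown replicate 2 at 0.1. Deviations cancel within each group, so positive values for some pairs force negative ones for others. These correlations therefore cannot decide whether the numbers pair the samples. With the replicate block 4491 genes were higher and 4816 lower, and the calls of the 10 genes were those of the fit without it.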
